A study of Coprinopsis cinerea with 10 samples.

Results

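The comparison set the young fruiting body of the ink cap mushroom Coprinopsis cinerea, the whole structure at about 2 cm before its cap opens, against the vegetative mycelium that gives rise to it. It used 4 of the 10 arrays of the series, 2 titled as young fruiting body and 2 as mycelium, and all 13320 genes measured on them. The remaining 6 arrays held fruiting initials, primordia and mature caps, with 2 arrays each. Both stages came from 1 fruiting dikaryon that was 50% of Okayama-7 origin, had been crossed back to that sequenced strain over 5 generations and was given as about 98.44% homologous to it. A young fruiting body replicate held 4 to 5 structures of cultures moved to 25 °C with 12 h of light and 12 h of dark, whereas a mycelium replicate pooled 5 agar plates of the same yeast extract and malt medium kept at 37 °C for about 1 week. The young fruiting body cultures had also grown at 37 °C for about 1 week before the move, and no light cycle is listed for mycelium. The stages thus differed in temperature and time in culture as well. Stage, temperature, light and time in culture cannot be told apart. Total RNA was labelled with Cy3 and hybridised to one-colour NimbleGen arrays, and the values are linear intensities per gene after robust multi-array averaging (RMA). Of the genes, 4328 carried a named product and 8992 (67.5%) were listed as predicted or hypothetical proteins.

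Mycelium of a mushroom is a network of hyphae that digests its substrate with secreted enzymes and takes up the released sugars and nitrogen compounds. Fruiting starts when hyphae aggregate into a compact knot, and the knot differentiates into stipe, cap and gills. On the gills the nuclei of each basidium replicate their DNA, fuse and enter meiosis before spores form, and in this fungus basidia pass through these steps nearly together. The young fruiting body therefore holds several tissues in 1 extract, and in such bulk RNA fewer cells of a type and less RNA per cell cannot be told apart.

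The median intensity was 3268 to 3403 on the 10 arrays, and all 10 lay on 1 slide scanned at 1 time, with mycelium at positions 1 and 2 and young fruiting bodies at positions 7 and 8, so slide position and stage cannot be told apart. Replicates correlated across genes at 0.999 in young fruiting bodies and 0.997 in mycelium, and the means of both stages at 0.901, as a description of genes that are not independent. The median difference between replicates was 1.18 times the one expected from the noise between the 2 probe blocks of an array in young fruiting bodies and 1.26 times in mycelium, beside 2.39 times in primordia and 2.32 times in mature caps. The labels call the replicates biological, but where they differ so little, the spread between them may be technical. Errors and p-values come from 1 fit to all 10 arrays. They measure only the spread between these samples, and primordia and mature caps, with their larger differences, add to it. The floor of an array was set at 4 times its random-sequence control, or 89.4 to 117 intensity units, and a gene at or below it on the 2 arrays of a stage has its fold against that stage given as a lower bound. The labelled stages were checked against genes known from fruiting bodies, which did not all follow the labels. Galectin-1 (CC1G_05003), a sugar-binding protein of the fruiting body, measured 10431 and 10337 in young fruiting bodies, against 3122 and 3252 in mycelium, and the arrays of the stages did not overlap. Galectin-2 (CC1G_05005) was bright on all 4 arrays, at 17489 and 17774 in young fruiting bodies, against 16241 and 16157 in mycelium. The CGL3 lectin (CC1G_00723) was brighter on the mycelium arrays, with 9534 and 9606 in young fruiting bodies, against 13176 and 13104 in mycelium. The meiotic gene Spo11 was under the floor in mycelium and well above it in young fruiting bodies, as given below.

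Changes written with ± are log2 differences, young fruiting body minus mycelium, with the standard error of the fit to all 10 arrays, 2 per stage. At a Benjamini-Hochberg adjusted p threshold of 0.05 in limma, 9947 of 13320 genes (74.7%) differed, of which 5411 (40.6%) rose in young fruiting bodies and 4536 (34.1%) fell. Most of these differences were small, since 6705 of the called genes lay below 2-fold and the median absolute log2 difference over all genes was 0.40. At least 2-fold, 1550 genes (11.6%) rose and 1692 (12.7%) fell, and in all of these the 2 young fruiting body arrays lay on one side of the 2 mycelium arrays, as they did in 86.7% of all genes. At least 4-fold, 592 rose and 754 fell, and at least 16-fold 125 rose and 142 fell. Genes without a named product made up 76.0% of the genes that rose at least 2-fold and 77.9% of those that fell, against 67.5% of all genes. In the alternative in which the replicates of mycelium, initials and young fruiting body were averaged to 1 sample each, 7454 genes passed, and the number of members that rose or fell moved by over 1.5 times in 20 of 38 lists, whereas the number past 2-fold moved by at most 1 in each list. Averaging leaves the fitted log2 changes as they were, so the number past 2-fold could move only through the adjusted p. Lists of genes are described below by the counts of members that rose, fell or passed 2-fold. The median log2 change of their members is given as well, beside 0.02 over all genes. The lists were drawn on product names, and genes with a named product differed somewhat from all genes. Of these 4328 genes, 47.1% rose and 32.2% fell, 8.60% and 8.64% at least 2-fold (median 0.08). The plot of both stage means shows the called genes on both sides of the diagonal over the whole range of intensity.

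**Figure D1:**
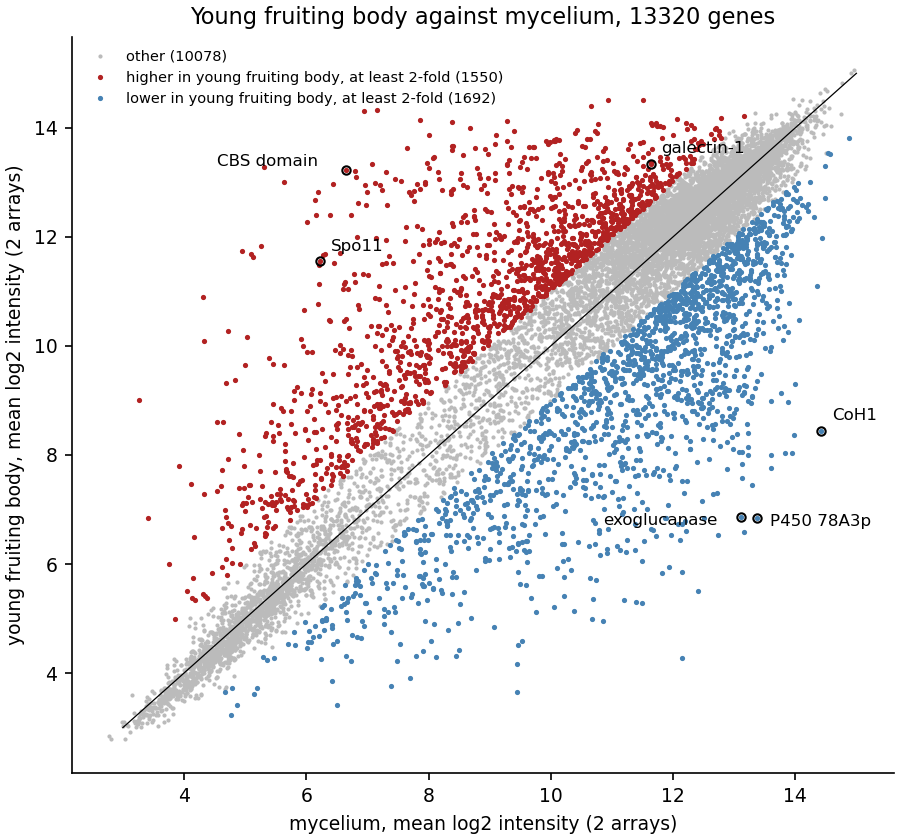
Mean log2 intensity of 13320 genes in young fruiting bodies (vertical axis) and in mycelium (horizontal axis), 2 arrays each; each point is a gene, red points rose and blue points fell at least 2-fold at adjusted p under 0.05. The 1550 red and 1692 blue points spread over the whole intensity range, and circles mark 6 genes named in the text.

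The genes that rose at least 2-fold had a median log2 intensity of 9.11 in mycelium, 10.59 in initials, 11.06 in primordia, 11.33 in young fruiting bodies and 10.95 in mature caps. The genes that fell had medians of 11.80, 10.16, 9.75, 9.38 and 9.83 in the same order of stages. Both sets were chosen on the young fruiting body and mycelium values, so their levels in these 2 stages are set by the choice, and those of the other stages are a description. The median of the other 10078 genes stayed between 12.01 and 12.11 in the 5 stages, and 6705 of these genes were called below 2-fold. Of the 1550 genes that rose, 589 were brighter on both young fruiting body arrays than on the other 8 arrays, beside 14.1% of all genes, and of the 1692 that fell, 527 were dimmer, beside 11.2%. The choice of both sets already meets this condition for the 2 mycelium arrays, so these counts are not read against the shares of all genes.

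**Figure D2:**
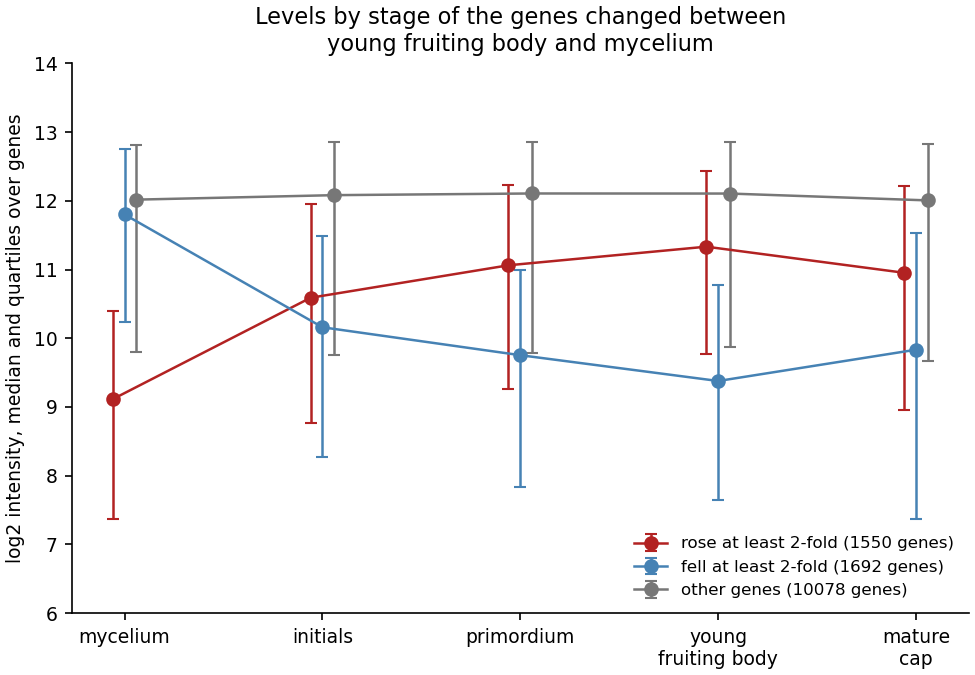
Median log2 intensity (points) and quartiles (bars) over genes in 5 stages, for the 1550 genes that rose at least 2-fold in young fruiting bodies relative to mycelium (red), the 1692 that fell (blue) and the 10078 others (grey). The sets were chosen on the young fruiting body and mycelium values, so those 2 stages describe the choice; the initials, at medians of 10.59 and 10.16, already lie away from mycelium.

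Among named products, the largest rises included a CBS domain protein, 2 cytochrome P450 genes, Spo11 and a cyclin. The CBS domain protein (CC1G_14321; the domain binds adenosyl compounds in other proteins) measured 9746 and 9473 in young fruiting bodies, against 100.2 and 101 in mycelium, a log2 change of 6.58 ± 0.0523 (SE, n = 2 each; adjusted p = 2.02e-09), or 95.5-fold. Its mycelium values lay near the floors of those arrays, 95.0 and 102, so this fold is uncertain. Cytochrome P450 CC1G_14898, of a family of haem monooxygenases, measured 4954 and 5007 in young fruiting bodies, against 69.1 and 60.1 in mycelium, which is at least 50.5-fold higher because mycelium was under the floor. A second P450 (CC1G_10321) had 3215 and 3276 in young fruiting bodies, against 107 and 55.5 in mycelium. The mycelium arrays of CC1G_10321 were further apart than those of the other 2 genes, and in all 3 both young fruiting body arrays were far above them. UDP-glucose epimerase (CC1G_00553), which interconverts UDP-glucose and UDP-galactose, had 13013 and 13042 in young fruiting bodies, against 337 and 338 in mycelium, a 38.6-fold difference. An aldehyde dehydrogenase (CC1G_05987) had 3339 and 3293 in young fruiting bodies, against 78.8 and 79.9 in mycelium, at least 33.7-fold higher, and the P450 oxidoreductase CC1G_05985, of the type that passes electrons to P450 enzymes, had 11335 and 11935 in young fruiting bodies, against 377 and 384 in mycelium. These genes have nearby locus tags and both were high in young fruiting bodies. Glycosyltransferase 2 (CC1G_14858) and nitroreductase (CC1G_14853) rose by log2 changes of 5.17 ± 0.155 and 5.15 ± 0.108.

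The 4 largest fitted rises among genes without a named product follow, in an order that is uncertain where mycelium was under the floor. CC1G_07485 measured 9966 and 9909.8 in young fruiting bodies, against 46.5 and 33.5 in mycelium, at least 101-fold higher. CC1G_05527 measured 8114 and 8324 in young fruiting bodies, against 46.6 and 53.6 in mycelium, at least 83.4-fold higher. Both were under the floor on both mycelium arrays. CC1G_01230 had 19712 and 20759 in young fruiting bodies, against 121 and 125 in mycelium, and CC1G_05060 had 20563 and 20296 in young fruiting bodies, against 139.8 and 146 in mycelium. Counted over all genes, 111 were above the floor in young fruiting bodies and under it in mycelium with a bound of at least 2-fold, and 120 showed the opposite.

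Genes of meiosis and DNA synthesis were mostly higher in young fruiting bodies. Of 18 genes of meiosis and recombination, 12 (66.7%) rose and 3 (16.7%) fell, beside 40.6% and 34.1% of all genes. At least 2-fold, 4 (22.2%) rose and 0 fell, beside 11.6% and 12.7% of all genes, and the median log2 change was 0.48. Spo11 (CC1G_03320), which cuts DNA to start meiotic recombination, measured 2900.0 and 3106 in young fruiting bodies, against 74.4 and 75.7 in mycelium, at least 30.5-fold higher. The arrays of the stages did not overlap, and mycelium was under the floor. The mean intensity of Spo11 was 75 in mycelium, 971 in initials, 2463 in primordia, 3001 in young fruiting bodies and 824 in mature caps, so it was highest in young fruiting bodies and lower in the mature cap. Msh5 (CC1G_14981), which stabilises crossover intermediates in other fungi, had 506 and 480.5 in young fruiting bodies, against 198 and 208 in mycelium, a rise of 1.28 ± 0.0918. The mismatch repair proteins Msh6 (CC1G_07657) and Msh3 (CC1G_03897) rose by 0.70 and 0.59. Members that fell were Rad50 (CC1G_03010; -0.22), Pds5 (CC1G_05280; -0.20), which binds cohesin, and the product named after meiotically up-regulated gene 190 of fission yeast (CC1G_13624; -0.40).

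Of 33 DNA replication genes, 21 (63.6%) rose and 1 (3.03%) fell, beside 40.6% and 34.1% of all genes (median 0.30). At least 2-fold, 5 (15.2%) rose, beside 11.6% of all genes. The GINS subunits PSF2 (CC1G_01354) and PSF1 (CC1G_12309), parts of the replicative helicase, rose by 1.84 ± 0.199 and 1.29 ± 0.0504, and the catalytic polymerases named delta (CC1G_11690) and epsilon (CC1G_00389) by 1.07 and 1.07. PSF2 intensities were 4576 and 4921 in young fruiting bodies, against 1273 and 1385 in mycelium, without overlap. Among 37 cell cycle genes 19 (51.4%) rose and 6 (16.2%) fell, beside 47.1% and 32.2% of genes with a named product, but only 2 passed 2-fold. They were cyclin CC1G_09963, with 8281 and 7745 in young fruiting bodies, against 226 and 222 in mycelium and a log2 change of 5.16 ± 0.0614 (adjusted p = 4.84e-09), and the CDC7 kinase CC1G_08833, which fires replication origins, at 1.29 ± 0.0439. The mean intensity of the cyclin was 224 in mycelium, 389 in initials, 2663 in primordia, 8009 in young fruiting bodies and 14000.1 in mature caps, so it was highest in the mature cap. Of 15 histone genes 10 (66.7%) rose and 1 (6.67%) fell. A product named histone III (CC1G_05753) rose by more than 2-fold, at 1.41 ± 0.0498. In the cytoskeleton and septin list 23 of 43 (53.5%) rose and 7 (16.3%) fell, with a median of 0.15. The largest falls were CC1G_13050 (-2.49 ± 0.142) and CC1G_13048 (-2.09 ± 0.0362), both named as actins.

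**Figure D3:**
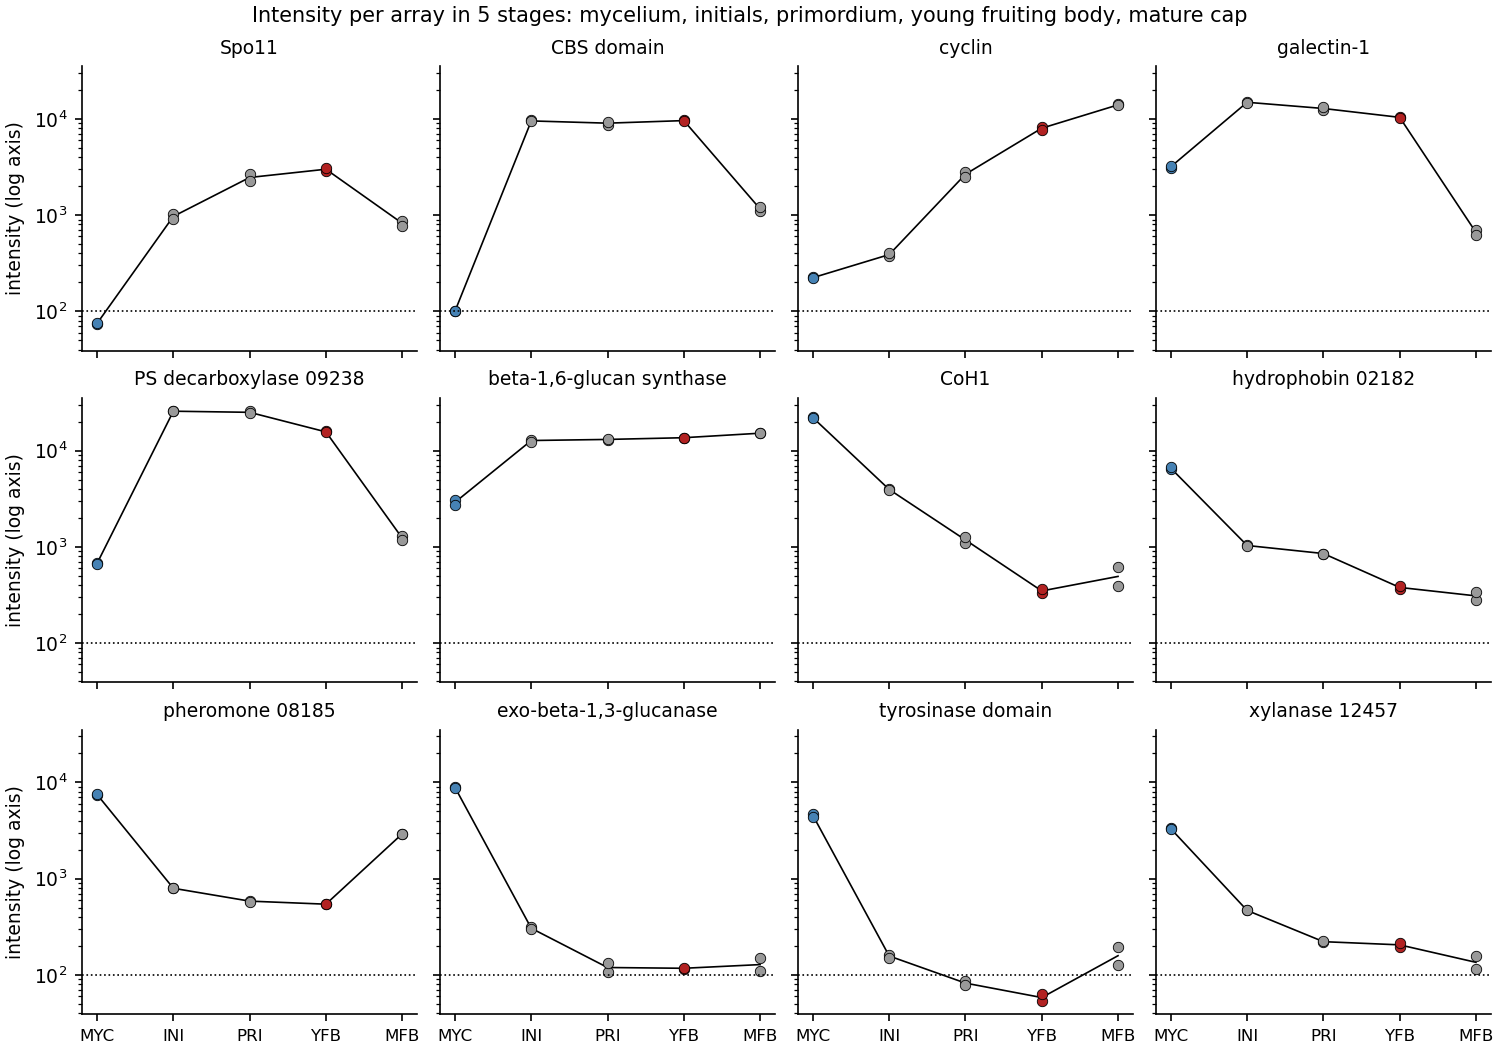
Intensity on each of the 10 arrays (points, logarithmic axis, 2 per stage) and the stage mean (line) of 12 genes in mycelium (MYC), initials (INI), primordium (PRI), young fruiting body (YFB, red) and mature cap (MFB); mycelium is blue and the dotted line is the mean floor. Spo11 is highest in young fruiting bodies and lower in mature caps, the cyclin goes on rising to the mature cap, and the 6 panels from CoH1 on are highest in mycelium.

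Of the fruiting body galectins, galectin-1 passed the test. Its intensities, given above, correspond to a rise of 1.70 ± 0.0626 (adjusted p = 4.25e-07), or 3.26-fold. Galectin-2 differed by 0.12 ± 0.0532 (adjusted p = 0.0752), and the related chitooligosaccharide-binding CGL3 lectin, with the intensities given above, by -0.46 ± 0.195 (adjusted p = 0.07). The arrays of the stages did not overlap in CGL3, but neither it nor galectin-2 passed the test. The standard error of CGL3 was 0.195 in this fit to all 10 arrays and 0.0223 with the 4 arrays alone. Over 14 alternatives the adjusted p of CGL3 lay between 0.000365, with the 4 arrays alone, and 0.362, and passed in 2 of them. That of galectin-2 lay between 0.0153 and 0.39 and passed in 4. Of 7 lectins and toxins 4 rose and 0 fell. A hemolysin (CC1G_02801) rose by 1.22 ± 0.0699, a ricin B lectin (CC1G_11246), of a fold that binds galactose, by 0.58 ± 0.0655, and the product named lectin CC1G_04692 stood at 0.03 ± 0.0327 without passing the test.

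Phosphatidylserine decarboxylases, which make phosphatidylethanolamine, changed in both directions. Of 8 genes 4 rose and 2 fell. CC1G_09208 measured 13449.6 and 13359 in young fruiting bodies, against 521 and 568 in mycelium, a log2 change of 4.62 ± 0.125. CC1G_09238 measured 15841 and 15507 in young fruiting bodies, against 678 and 670.3 in mycelium, a log2 change of 4.54 ± 0.0566. In both genes every young fruiting body value was far above every mycelium value. CC1G_06249 rose by 1.87 ± 0.0568 and CC1G_09237 by 0.48 ± 0.0514, while CC1G_09241, with 6253 and 6453 in young fruiting bodies, against 17011 and 16547 in mycelium, fell by 1.40 ± 0.0362. CC1G_02871 was lower by 0.12 ± 0.0434 and passed at an adjusted p of 0.0447, but lost that call without any 1 of the 4 arrays, at adjusted p values of 0.0597 to 0.203 (0.0095 to 0.226 over all 14 alternatives). CC1G_09240 stood at -0.12 ± 0.069 and CC1G_09044 at -0.02 ± 0.0244 without passing. The loci CC1G_09237, CC1G_09238, CC1G_09240 and CC1G_09241 have nearby tags, and their differences had both signs.

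Hydrophobins, small secreted proteins that coat aerial hyphae and make them water-repellent, were mainly lower. Of 5 genes listed by that name, 4 fell, all at least 2-fold, and 1 rose (median -1.94). CC1G_02182 measured 366 and 392 in young fruiting bodies, against 6402 and 6742 in mycelium, a log2 change of -4.12 ± 0.081 (adjusted p = 2.68e-08). Hydrophobin-251 (CC1G_08314), hydrophobin-315 (CC1G_09189) and CC1G_10176 had log2 changes of -2.04, -1.94 and -1.81, and another hydrophobin-251 (CC1G_13822) rose by 0.26 ± 0.0311. CoH1 (CC1G_02184), known in this fungus as a hydrophobin of the mycelium though its product name does not say so, had a larger fall. It measured 331 and 367 in young fruiting bodies, against 22262 and 21773 in mycelium, a log2 change of -5.98 ± 0.197 (adjusted p = 2.53e-07), or 63.2-fold lower. Its mean intensity was 22016 in mycelium, 3949.9 in initials, 1179 in primordia, 349 in young fruiting bodies and 493 in mature caps, and it was thus lower at each stage up to the young fruiting body.

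Genes that build the fungal wall and genes that cleave it changed in both directions. Of 47 wall synthesis genes 15 (31.9%) rose and 24 (51.1%) fell (median -0.12), beside 40.6% and 34.1% of all genes. At least 2-fold, 5 (10.6%) rose and 6 (12.8%) fell, beside 11.6% and 12.7% of all genes. Among genes with a named product these shares were 8.60% and 8.64%. Of 36 wall hydrolysis genes 17 (47.2%) rose and 15 (41.7%) fell, 11 (30.6%) and 3 (8.33%) at least 2-fold. The difference between these lists was not tested. The B-(1-6) glucan synthase CC1G_10038, for a polymer that cross-links wall glucans, measured 13638 and 13633 in young fruiting bodies, against 3086 and 2740.3 in mycelium, a rise of 2.23 ± 0.0562. Chitin synthases, counted after the values were seen, fell in 7 of 10 and rose in 2. Chitin deacetylases, which turn chitin into chitosan, split into 5 that rose and 7 that fell, between -1.82 (CC1G_10743) and 1.97 (CC1G_10511). Of 8 chitinases 5 rose, all 5 at least 2-fold, and 2 fell, with differences up to 1.90 (CC1G_00406). Chitin deacetylases and chitinases were also counted after the values were seen. Lysozymes entered the hydrolysis list by product name, and whether they cleave the fungal wall was not tested. Lysozyme CC1G_03076 had 707 and 751 in young fruiting bodies, against 71.7 and 81.7 in mycelium, at least 7.4-fold higher. Lysozyme CC1G_03042 rose by 2.75 ± 0.0988, and lysozyme CC1G_03047 fell with a log2 change of -2.38 ± 0.0886. The largest fall of the list was exo-beta-1,3-glucanase CC1G_08284, which measured 115 and 119 in young fruiting bodies, against 8900.4 and 8819 in mycelium, a log2 change of -6.24 ± 0.151 (adjusted p = 6.58e-08). It was 75.7-fold lower, but its young fruiting body values lay near the floors of those arrays, 94.2 and 89.4, so this fold is uncertain. By contrast, glucan 1,3 beta-glucosidase CC1G_07602 rose by 2.68 ± 0.033.

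**Figure D4:**
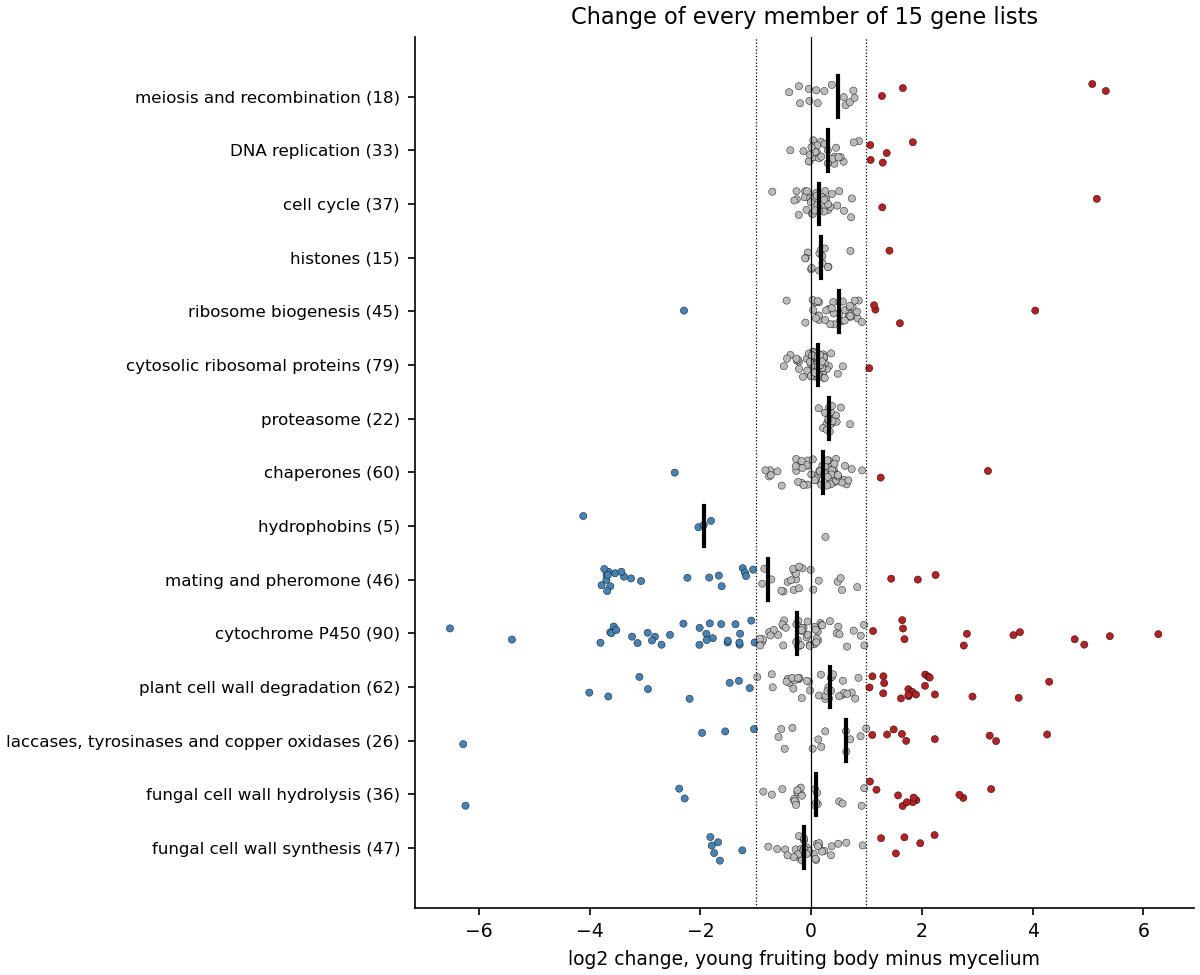
Log2 change (young fruiting body minus mycelium) of every member of 15 gene lists, with red points for genes that rose and blue points for genes that fell at least 2-fold, a black bar at each list's median and dotted lines at 2-fold; vertical scatter within a row has no meaning. The proteasome members all lie to the right of 0 and within 2-fold, 4 of 5 hydrophobins lie below -1, and the cytochrome P450 genes reach from -6.52 to a fitted value of 6.27, whose gene was under the floor in mycelium and has only a lower bound.

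Secreted enzymes that attack plant polymers were found among both the rises and the falls. Of 62 such genes 36 rose and 20 fell, 19 (30.6%) and 8 (12.9%) of them at least 2-fold, beside 11.6% and 12.7% of all genes. The cellulose binding domain protein CC1G_06945 measured 2501 and 2560.0 in young fruiting bodies, against 125 and 132 in mycelium, a rise of 4.30 ± 0.129. Cellobiohydrolase I-I (CC1G_12980), an enzyme that releases cellobiose from cellulose chain ends, measured 1917 and 1855 in young fruiting bodies, against 133 and 148 in mycelium, a rise of 3.75 ± 0.0655, and endoglucanase-4 (CC1G_09526), under the floor in mycelium, was at least 5.73-fold higher. Both were higher on every young fruiting body array. Counted after the values were seen, 15 of 24 cellobiohydrolases and endoglucanases rose and 7 fell, 6 and 0 at least 2-fold. The falls of the list were led by xylanase CC1G_12457, which cuts the hemicellulose xylan, with 194 and 216 in young fruiting bodies, against 3320.1 and 3269 in mycelium and a log2 change of -4.01 ± 0.135, and by mannanase CC1G_02860 (-3.66 ± 0.139), and xylanase A (CC1G_12867) was at least 4.18-fold lower.

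Laccases, tyrosinases and copper oxidases, which oxidise phenols or their products, rose in 16 and fell in 8 of 26, 9 (34.6%) and 4 (15.4%) at least 2-fold (median 0.63). Laccase CC1G_03940 measured 2839 and 2979 in young fruiting bodies, against 148 and 155 in mycelium, a rise of 4.26 ± 0.0642 (adjusted p = 1.09e-08). Laccase 2 (CC1G_03946) rose by 3.34 ± 0.12 and copper radical oxidase CC1G_01224 by 3.23 ± 0.108, whereas laccase-1 (CC1G_08591) fell with a log2 change of -1.97 ± 0.0901. A tyrosinase central domain protein (CC1G_06016), of a family that starts melanin synthesis, measured 53.2 and 63.4 in young fruiting bodies, against 4639 and 4417 in mycelium, at least 49.3-fold lower, and was under the floor in young fruiting bodies. Peroxidase CC1G_02104 had 39.5 and 41.7 in young fruiting bodies, against 2269 and 2417 in mycelium, at least 25.5-fold lower. Of 37 antioxidant enzymes 11 (29.7%) rose and 18 (48.6%) fell, beside 40.6% and 34.1% of all genes. Among them were thioredoxin-dependent peroxidase CC1G_07749, which removes peroxides, at 4.31 ± 0.194 and glutathione S-transferase Gst3 (CC1G_04116) at -3.56 ± 0.0912.

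Of 91 peptidases 40 (44%) rose and 35 (38.5%) fell, shares near the 40.6% and 34.1% of all genes, with 16 and 19 at least 2-fold. Metalloprotease CC1G_02824 measured 896 and 868 in young fruiting bodies, against 50.5 and 34.7 in mycelium, at least 8.95-fold higher, and tripeptidyl peptidase A (CC1G_01435), which removes tripeptides from protein ends, rose by 3.71 ± 0.0616. On the other side 3 metalloproteases were under the floor in young fruiting bodies. CC1G_02236 had 36 and 50.3 in young fruiting bodies, against 1204 and 1188 in mycelium, at least 13-fold lower, while CC1G_15350 was at least 14-fold and CC1G_13253 at least 17.1-fold lower. The lowest log2 change of the list was -4.81. LAP1 (CC1G_04948), whose product name did not place it in this list, measured 212 and 224 in young fruiting bodies, against 12199.9 and 12660.2 in mycelium. Its log2 change was -5.83 ± 0.194.

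Cytochrome P450 genes, whose products oxidise lipids and secondary metabolites, fell more often than they rose. Of 90 genes 25 rose and 51 fell, 12 (13.3%) and 30 (33.3%) at least 2-fold, with a median of -0.25. Beside the rises of CC1G_14898 and CC1G_10321 above, P450 78A3p (CC1G_09431) measured 111 and 120.3 in young fruiting bodies, against 10520.2 and 10746 in mycelium, a log2 change of -6.52 ± 0.124 (adjusted p = 2.41e-08), or 92-fold lower. P450 CC1G_10879 had 101 and 121 in young fruiting bodies, against 4629 and 4762 in mycelium, a log2 change of -5.40 ± 0.121. The young fruiting body values of CC1G_09431 and CC1G_10879 lay near the floors of those arrays, 94.2 and 89.4, so the size of these falls is uncertain. Probes of close paralogs can share signal in such a family. Among 52 alcohol and short-chain dehydrogenases and oxidases 22 rose and 27 fell, 8 and 15 at least 2-fold, with aryl-alcohol oxidases CC1G_14966 and CC1G_01658, which supply hydrogen peroxide, at -2.77 ± 0.146 and -2.76 ± 0.0433 and arylalcohol dehydrogenase CC1G_06844 at 1.82 ± 0.0814. Other oxidoreductases among the largest falls were OrdA (CC1G_05781, -4.70 ± 0.0381) and the Rossmann fold oxidoreductase CC1G_11777 (-4.64 ± 0.115). The ThiJ/PfpI protein CC1G_03578 had a log2 change of -4.62 ± 0.0719. Of 7 terpene and secondary metabolite enzymes 5 rose and 0 fell, and terpene synthase CC1G_10050, which cyclises prenyl diphosphates, rose by 3.17 ± 0.146. In fatty acid and sterol metabolism 24 of 72 (33.3%) rose and 26 (36.1%) fell, beside 40.6% and 34.1% of all genes. Fatty acid conjugase CC1G_02589 and delta 12 fatty acid epoxygenase CC1G_02590, with adjacent tags, rose by 3.41 ± 0.261 and 3.14 ± 0.142, while squalene monooxygenase CC1G_03119, an early enzyme of sterol synthesis, had a log2 change of -2.74 ± 0.054 and long-chain-fatty-acid-CoA ligase CC1G_00288 one of -2.16 ± 0.104.

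Transporters of sugars and of nitrogen compounds are given apart. Of 23 sugar and major facilitator transporters 2 rose and 7 fell at least 2-fold, and their median of 0.02 changed sign under 3 alternatives. Glucose transporter CC1G_07797 measured 1699 and 1699.8 in young fruiting bodies, against 12191 and 12130.3 in mycelium, a log2 change of -2.84 ± 0.07, and sugar transporter CC1G_04773 fell with one of -2.22 ± 0.0791, while sugar transporter CC1G_05616 rose by 1.39 ± 0.0389. Of 25 nitrogen and water transporters 8 (32%) rose and 2 fell at least 2-fold. Peptide transporter MTD1 (CC1G_02463) measured 2818 and 2927 in young fruiting bodies, against 72.9 and 75 in mycelium, at least 29.1-fold higher, and a second gene of that name (CC1G_10862) rose by 2.18 ± 0.0759. Amino acid permeases and transporters, counted after the values were seen, rose in 5 of 8, 4 at least 2-fold. A urea transporter (CC1G_06488) rose by 1.80 ± 0.0415. Both genes that fell at least 2-fold were ammonium transporters, CC1G_05914 with 186 and 170.0 in young fruiting bodies, against 631 and 614 in mycelium (-1.81 ± 0.142) and CC1G_13124 (-1.46 ± 0.0269). In urea and nitrogen metabolism 13 of 24 genes rose and 9 fell, 4 and 0 at least 2-fold. Uricase (CC1G_04058), which opens the ring of uric acid, measured 9378 and 8915 in young fruiting bodies, against 1676 and 1537 in mycelium, a rise of 2.51 ± 0.0522, and the urease accessory proteins ureG (CC1G_02963) and UreF (CC1G_01326), which load nickel into urease, rose by 1.64 ± 0.0368 and 1.24 ± 0.0339. Glutamine synthetase CC1G_12298, which assimilates ammonium, rose by 1.14 ± 0.0337.

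Mating and pheromone genes had the lowest median of the 38 lists after the hydrophobins, at -0.78, with 8 of 46 higher and 34 lower, 3 (6.52%) and 21 (45.7%) at least 2-fold. Lipopeptide pheromones and their receptors let compatible nuclei recognise each other and keep the dikaryon. Pheromone gene CC1G_08185 measured 540.4 and 544 in young fruiting bodies, against 7423 and 7537 in mycelium, a log2 change of -3.79 ± 0.0247 (adjusted p = 1.35e-09), and CC1G_14010 and CC1G_14855 had log2 changes of -3.74 ± 0.0771 and -3.70 ± 0.0619. Together 9 pheromone genes lower by 3.4 or more had 437 to 612 in young fruiting bodies, against 5195 to 7994 in mycelium, and signal shared between probes of such similar genes was not tested. By contrast pheromone gene CC1G_14485 rose by 1.45 ± 0.111, and so did pheromone-regulated membrane protein Prm10 (CC1G_07958), by 1.93 ± 0.0307, and a second product of that kind (CC1G_01756), which was at least 3.46-fold higher. The mean intensity of CC1G_08185 was 7479.8 in mycelium, 793 in initials, 584 in primordia, 542 in young fruiting bodies and 2917 in mature caps. All 6 genes with a pheromone receptor product, counted after the values were seen, fell, by log2 changes between -1.18 and -0.27. Of all genes 34.1% fell. Both genes of light sensing rose: photoreceptor A (CC1G_08609) by 0.54 ± 0.03 and photolyase (CC1G_14649), which repairs ultraviolet damage, by 0.70 ± 0.0553.

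FunK1 kinases, a family expanded in mushrooms, rose in 38 (29.9%) and fell in 64 (50.4%) of 127 (median -0.21), beside 40.6% and 34.1% of all genes. At least 2-fold, 12 (9.45%) rose and 18 (14.2%) fell, beside 11.6% and 12.7% of all genes. Among genes with a named product these shares were 8.60% and 8.64%. Of the 127, 28 were under the floor in both stages. FunK1 kinase CC1G_02515 measured 1731 and 1763 in young fruiting bodies, against 57 and 93.8 in mycelium, at least 17.7-fold higher. CC1G_02100 had a log2 change of -3.61 ± 0.123, with young fruiting body values of 93.3 and 97.1 near the floors of 94.2 and 89.4. Of 131 other kinases 58 (44.3%) rose and 47 (35.9%) fell, near the 40.6% and 34.1% of all genes. The CAMK kinase CC1G_13697, of the calmodulin-dependent class, measured 7260.4 and 7222 in young fruiting bodies, against 201 and 209.9 in mycelium, a rise of 5.14 ± 0.0503, and the AGC kinase CC1G_04354 measured 12444 and 13059 in young fruiting bodies, against 435 and 435 in mycelium, a rise of 4.87 ± 0.0721. The falls were led by TKL kinases CC1G_05652 (-4.23 ± 0.042) and CC1G_02847, which was at least 13.6-fold lower. Products named transcription factors moved little, with 24 of 40 higher, 7 lower and 1 and 1 past 2-fold; GATA-4 (CC1G_14734) had a log2 change of -1.27 ± 0.0419. Of 9 F-box proteins, which choose substrates for ubiquitin ligases, 5 rose and 3 fell.

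All 22 proteasome genes rose, by log2 changes of 0.14 to 0.70 (median 0.33), beside 40.6% of all genes that rose. Of 45 ribosome biogenesis genes 37 (82.2%) rose and 3 (6.67%) fell (median 0.51). The snoRNA binding protein CC1G_06928 measured 8132 and 7697 in young fruiting bodies, against 486 and 470.2 in mycelium, a rise of 4.05 ± 0.0501, and nucleolar essential protein 1 (CC1G_11376), which methylates ribosomal RNA in yeast, rose by 1.60 ± 0.117. Cytosolic ribosomal proteins rose in 45 (57.0%) and fell in 8 (10.1%) of 79, by a median of only 0.12. Mitochondrial ones rose in 1 and fell in 7 (63.6%) of 11 (median -0.18), beside 34.1% of all genes that fell. Translation factors and tRNA synthetases rose in 37 and fell in 17 of 76 (48.7% and 22.4%), among them eIF2C 2 (CC1G_08842), an Argonaute protein that binds small RNAs, at 1.63 ± 0.0276. Chaperones rose in 35 (58.3%) and fell in 16 (26.7%) of 60. All 8 T-complex chaperonins, which fold actin and tubulin and were counted after the values were seen, rose by 0.29 to 0.67. Small heat shock proteins spread much wider: CC1G_05868 measured 444 and 456 in young fruiting bodies, against 44.1 and 54.7 in mycelium, at least 4.56-fold higher, and CC1G_02341 measured 157 and 180.5 in young fruiting bodies, against 897 and 962 in mycelium, a log2 change of -2.46 ± 0.0815. Autophagy and vacuole genes rose in 33 (68.8%) and fell in 10 (20.8%) of 48, and splicing genes in 38 (60.3%) and 8 (12.7%) of 63. With the replicate pairs averaged, which leaves the error to primordium and mature cap, 7 cytosolic ribosomal, 13 splicing, 4 histone, 19 autophagy and vacuole, 14 cytoskeletal and 23 translation genes rose, while 20 proteasome and 32 ribosome biogenesis genes did.

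Genes of energy metabolism changed in both directions. Of 28 genes of glycolysis and storage sugars 21 rose and 5 fell (median 0.36). A glyceraldehyde 3-phosphate dehydrogenase (CC1G_09117) rose by 1.67 ± 0.0464, while NADP-dependent mannitol dehydrogenase (CC1G_15600) and pyruvate decarboxylase (CC1G_03453), the first step from pyruvate to ethanol, had log2 changes of -1.61 ± 0.054 and -1.14 ± 0.0397. Respiration genes rose in 12 (18.2%) and fell in 25 (37.9%) of 66, 0 and 2 at least 2-fold. Both large falls were outside the main electron transport chain complexes: mitochondrial alternative oxidase (CC1G_03463), which bypasses the later complexes, measured 3050.1 and 3148 in young fruiting bodies, against 8713 and 8869.5 in mycelium (-1.50 ± 0.0591), and malate dehydrogenase CC1G_07719 had a log2 change of -1.44 ± 0.0708.

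**Figure D5:**
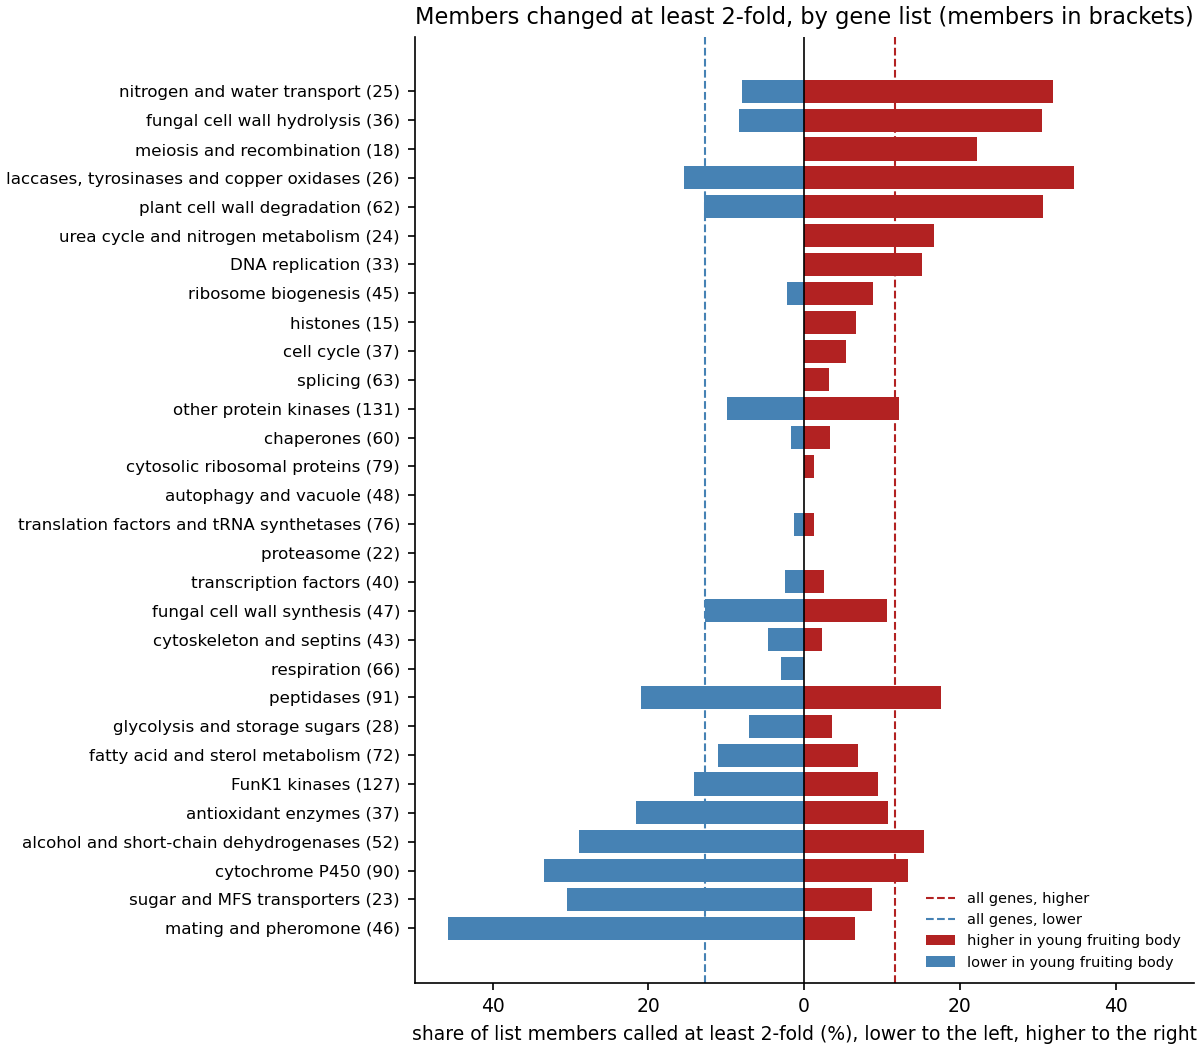
Share of each gene list's members, in percent, that rose (red, to the right) or fell (blue, to the left) at least 2-fold in young fruiting bodies relative to mycelium, for lists of 15 or more genes with the number of members in brackets; dashed lines mark all genes at 11.6% and 12.7%. Mating and pheromone genes have the largest blue bar at 45.7%, and laccases, tyrosinases and copper oxidases the largest red bar at 34.6%.

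The 4 largest fitted falls among genes without a named product follow, in an order that is uncertain where young fruiting bodies were under the floor. CC1G_15270 measured 18.4 and 20.5 in young fruiting bodies, against 4439 and 4610.3 in mycelium, at least 49.3-fold lower. CC1G_08382 measured 44.4 and 46.7 in young fruiting bodies, against 5340.2 and 5508 in mycelium, at least 59.1-fold lower. Both were under the floor in young fruiting bodies. CC1G_08363 had 90.5 and 102 in young fruiting bodies, near the floors of 94.2 and 89.4, against 9017 and 9209 in mycelium. CC1G_10614 had 37.3 and 40.8 in young fruiting bodies, against 2888 and 2893 in mycelium, at least 31.5-fold lower.

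Some genes that changed lay side by side. In the order of the RefSeq annotation, taken over array genes only, 49 runs of at least 4 adjacent genes changed at least 2-fold in the same direction. Of these runs 13 were higher and 36 lower, with 222 genes in all. Of all genes 11.6% rose and 12.7% fell at least 2-fold. The longest run held 8 genes that fell, CC1G_02685 to CC1G_02692. The one named product among them is 5-oxoprolinase (CC1G_02687, -1.30), which opens oxoproline to glutamate. The first gene of that run, CC1G_02685, measured 217 and 239 in young fruiting bodies, against 8872 and 9076 in mycelium. Runs of 7 lower genes lay at CC1G_07316 to CC1G_07320, with a phosphate symporter, a pheromone gene and an HHE domain protein, and at CC1G_08963 to CC1G_08958, without a named product. Of the runs of 6, those at CC1G_08941 to CC1G_08936 and CC1G_10996 to CC1G_11000 were lower. The run at CC1G_04057 to CC1G_04061 was higher and held uricase and a family 5 glycosyl hydrolase (CC1G_04059; 1.05). In it the hypothetical protein CC1G_04060 measured 17634 and 17531 in young fruiting bodies, against 323 and 344 in mycelium, a rise of 5.72 ± 0.038. A further run of 6 higher genes, CC1G_14262 to CC1G_03322, contained Spo11. How many such runs another gene order would give was not tested, nor was signal shared between probes of similar neighbours.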

How the data were processed

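Transcript levels of 5 stages of Coprinopsis cinerea were measured on 10 arrays, 2 biological replicates per stage as the titles give them. The authors deposited linear intensity values, 1 per gene and probe block, made by robust multi-array averaging (RMA) per the file names; per the file headers a value summarised 5 probes (fewer for 31 genes). Software and settings for background and normalization are not given in the sources used here. Probe numbers came from their own deposited column. An intensity table of all samples, also deposited by the authors, matched the block means within 4.98e-08% and held 16 genes fewer.

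Per array, both blocks were averaged on the log2 scale, with no further normalization, pseudocount or filter. All 10 arrays entered 1 limma fit (limma 3.58.1 in R 4.3.3; lmFit and eBayes) with stage as the only term and 5 residual degrees of freedom, and young fruiting body minus mycelium was tested with Benjamini-Hochberg adjustment over 13320 genes at a threshold of 0.05. The fit was tested on simulated data. The number of arrays limits the precision. Where a stage was under the floor, the fold is the mean of the brighter stage against the floor, or against the dim value itself where that was higher. Errors are standard errors of the fitted log2 change.

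Lists were patterns on product names, which are those of the array's design and can be old. Named genes were, in each direction, the 12 with a named product and the 4 without one that changed most, up to 3 per direction and list, all members of lists of 8 or fewer, the galectins and the 6 longest runs of neighbours; further genes are named after their values were seen, and not all genes that the rule takes are printed. The members and lists were chosen with earlier results of these data known. RefSeq annotation of assembly CC3 matched 13318 genes by locus tag and served for neighbour order only. Alternatives were quantile and median normalization, a filter on dim genes, each block alone, the deposited table of the series, the 4 arrays alone, the replicate number as a block, another prior, limma's treat, averaged replicate pairs, and leaving out each of the 4 arrays.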

Additional observations from a re-analysis of the deposited data

How the results depend on the processing

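Over the 14 alternatives run for it, the number of genes called lay between 7454, with the replicate pairs averaged, and 10128, with an intensity trend and robust prior, against 9947 in the reported fit, and the number past 2-fold, with limma's treat as well, between 2594, with treat, and 3265, with quantile normalization, against 3242. Leaving out each of the 4 arrays in turn gave 9218 to 9426 genes called and 3227 to 3259 past 2-fold. Median centring moved the split of called genes to 5252 higher and 4690 lower. Same-numbered deviations correlated at 0.365 between young fruiting body and mycelium and at -0.02 to 0.50 over the 10 stage pairs, 2 of them below 0.1, so the pairing by number is a hint at most and was kept out of the reported fit; with the replicate block 9986 genes were called and 3241 passed 2-fold, and the adjusted p of galectin-2 (CC1G_05005) was 0.0495, the one named gene whose call it changed.

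Of the named genes, lectin CC1G_04692, not called in any setting, had a difference of 0.03 in the reported fit and 0.0639 and -0.0045 without young fruiting body replicates 1 and 2. With the pairs averaged, CC1G_02580, CC1G_02871, CC1G_03091, CC1G_05377 and CC1G_05509 lost their call; lectin PVL (CC1G_03091) also lost it without 3 of the 4 arrays, and CC1G_02871 without each of them, in block 1 alone and after quantile normalization. The cause was not tested. At low signal the floor limits the result: 1616 genes were under it in both stages, and 250 of these (15.5%) were still called.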
